A study of Mus musculus with 10 samples.

Results

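Complex I of the respiratory chain was described across the 42 rows of the deposited count table whose gene symbol begins Nduf, is followed by a, ab, b, c, s, v or af, and then by a number. Of these, 38 are named as subunits and 4, Ndufaf1 to Ndufaf4, as assembly factors, and together they are 42 of the 20692 genes in the table. RNA came from the frozen ventricular apex of hearts of FVB/NJ mice, an inbred strain, aged 9 weeks and labelled female. One group of 5 hearts was taken 1 week after transverse aortic constriction (TAC), an operation that narrows the aortic arch and loads the left ventricle with pressure. The other group of 5 came from sham-operated mice of the same strain, age and labelled sex. Both groups were wild type, so no gene was targeted, and nothing in the labels ties a TAC animal to a sham animal.

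Complex I (NADH:ubiquinone oxidoreductase) is the entry point of electrons from NADH into the respiratory chain of the inner mitochondrial membrane. Its matrix arm takes electrons from NADH, passes them along iron-sulfur clusters and hands them to ubiquinone, and its membrane arm pumps protons. The core subunits that carry out this chemistry are split between nuclear genes and genes of the mitochondrial DNA, and the many accessory subunits, all nuclear, surround the core. Assembly factors hold intermediate modules together and are absent from the finished enzyme. Heart muscle is dense in mitochondria and draws most of its ATP from this chain.

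Each library held between 7410967 and 10126574 counts, and single members had between 64 and 8871 counts in a library. Levels are given as CPM, a gene's counts relative to the size of its library on a fixed scale, after TMM normalization, which aligns the bulk of genes between libraries, and libraries are written TAC 1 to TAC 5 and sham 1 to sham 5 by the numbers in their titles. The library labelled TAC replicate 1, written TAC 1, went against its female label. Xist, the transcript of the inactive X chromosome, had 14 counts there and 1042 to 1561 elsewhere, and the Y-linked gene Ddx3y had 155 counts there and 0 elsewhere. Calls of members and counts of called genes in a list that change without it are therefore given both ways. The submitters' processing notes name different aligner versions for TAC and sham libraries, and this difference cannot be told apart from the operation. In bulk tissue, fewer cells of a type and less RNA per cell cannot be told apart either.

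Transcripts of complex I were lower in TAC hearts almost as one block, and by a similar, modest amount. The 42 members summed to 9493, 11301, 10487, 11196 and 10755 CPM in TAC 1 to TAC 5, against 14159.7, 13221, 13765, 14163 and 13729 CPM in sham 1 to sham 5. Every TAC library lay below every sham library in this sum, and TAC 1 was the lowest. All 42 members passed the filter on low counts. At an adjusted p under 0.05 by edgeR's quasi-likelihood test, 39 of them fell in TAC, where 17.0% of the 12001 tested genes fell. One member, Ndufa4l2, rose, where 18.8% of tested genes rose, and Ndufaf2 and Ndufaf4 did not pass. The median log2 fold change of the members, TAC over sham, was -0.38, which is 0.770 of the sham level, beside 0.00 for all tested genes. No member changed by 1.5-fold or more in either direction. In 36 members all TAC libraries lay below all sham libraries, as they did in 11.6% of tested genes. The groups overlapped in Ndufa12, Ndufb2, Ndufa4l2, Ndufaf1, Ndufaf2 and Ndufaf4. Without TAC 1, 38 members fell, none rose, and the median was -0.34; the calls that were lost were those of Ndufa12 and Ndufa4l2.

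**Figure D1:**
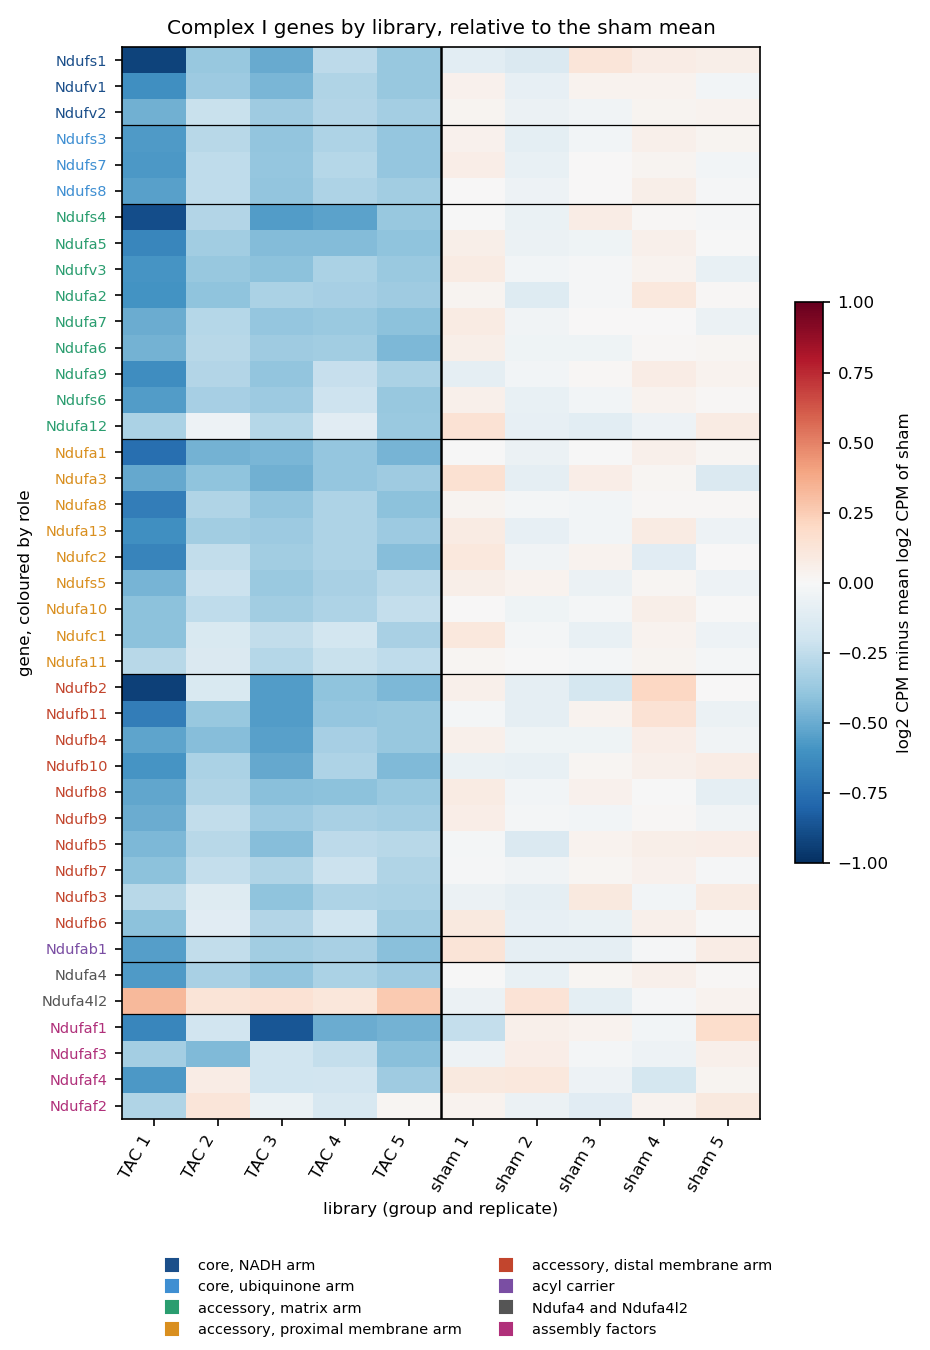
Each of the 41 rows is a complex I gene, grouped and coloured by role, and each column a library, with the 5 TAC libraries left of the 5 sham libraries; colour gives log2 CPM minus the gene's mean over sham. The TAC side is blue in nearly every row, deepest in TAC 1, whose median over the 42 genes was -0.55, and Ndufa4l2 is the one row that is red throughout TAC.

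The spread among the falls was small. The 39 called falls ran from 0.695 of the sham level, in Ndufaf1, to 0.856, in Ndufa12, with quartiles of 0.745 and 0.791. For 38 of the 42 members the common median of -0.38 lay within 2 standard errors (SE) of the member's own log2 fold change. The 4 exceptions, Ndufa11, Ndufa12, Ndufaf2 and Ndufa4l2, all had values above the median. Each SE also holds the library shifts that members share, so the count of 38 does not test whether members differed from each other. The members' median deviation from the sham mean was -0.55, -0.28, -0.39, -0.31 and -0.37 on the log2 scale in TAC 1 to TAC 5, against 0.04, -0.06, -0.02, 0.04 and 0.00 in sham 1 to sham 5. TAC 1 was lowest and TAC 2 highest among the TAC hearts, and no TAC heart reached the sham range. Of the 42 members, 35 had their lowest TAC level in TAC 1, and 23 had their highest in TAC 2 and 13 in TAC 4. Genes of 1 library share any shift of that library, so these counts are not repeated evidence for an order of the hearts. TAC 1 was also the lowest TAC heart in the sums of complex II, complex III, complex IV and ATP synthase genes.

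**Figure D2:**
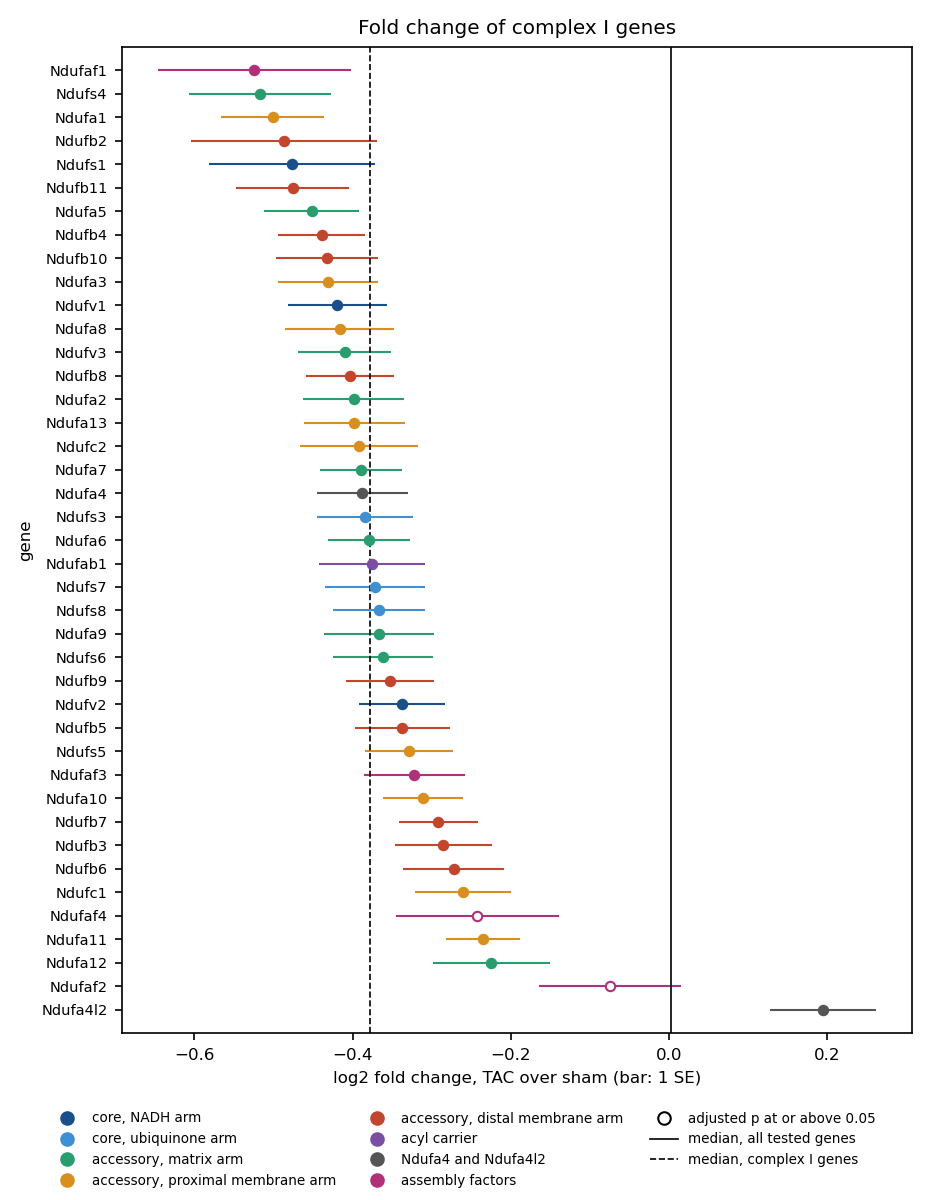
Points are log2 fold changes, TAC over sham, of 41 of the 42 genes with bars of 1 SE, coloured by role; open points did not pass the adjusted threshold. Most points sit close to the dashed median of -0.38, away from the solid line at the median of all tested genes, and Ndufa4l2 lies alone on the positive side at 0.19.

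The NADH-oxidizing end of the matrix arm has 3 nuclear core subunits, and all 3 fell (median log2 fold change -0.42). Ndufv1 carries the flavin that accepts electrons from NADH. It had 509, 605, 565, 629.8 and 599 CPM in TAC 1 to TAC 5, against 801, 733, 794, 796 and 763 CPM in sham 1 to sham 5. All TAC hearts were low, and the highest of them, TAC 4, stayed under the lowest sham heart. Its log2 fold change was -0.42 ± 0.06 (SE; adjusted p = 0.000315 by edgeR). Ndufv2, its partner with an iron-sulfur cluster, had 286, 342, 311, 325 and 314 CPM in the TAC hearts, against 406, 384, 389, 407 and 408 CPM in the sham hearts. The groups were apart, and the log2 fold change, TAC over sham, was -0.34 ± 0.05 (adjusted p = 0.000524 by edgeR). Ndufs1, the largest core subunit and the carrier of further iron-sulfur clusters, had 178, 261, 238, 282 and 261 CPM in the TAC hearts, against 315, 305, 368, 356 and 352 CPM in the sham hearts. TAC 1 was well below the other TAC hearts in Ndufs1, and the groups did not overlap. Its log2 fold change was -0.48 ± 0.10 (adjusted p = 0.00364 by edgeR) with TAC 1 and -0.38 without it (adjusted p = 0.0012 by edgeR). Ndufs1 shares exon sequence with an overlapping gene, so its level may depend on how the authors' counting, whose setting is not given, treated reads there.

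Of the nuclear core subunits of the arm that reduces ubiquinone, Ndufs7, Ndufs3 and Ndufs8 are given here. All 3 fell, with log2 fold changes from -0.38 to -0.37. Ndufs7, which holds the last iron-sulfur cluster before ubiquinone, had 466, 582, 531, 569.9 and 531 CPM in TAC 1 to TAC 5, against 725, 660.1, 695, 705 and 682 CPM in sham 1 to sham 5. TAC 1 was the lowest heart and sham 2 the lowest of the sham hearts, and the groups did not overlap. Ndufs3, a scaffold of this arm, had 191, 234, 216, 229 and 217 CPM in the TAC hearts, against 292, 265, 279, 294 and 289 CPM in the sham hearts. Ndufs8, which holds iron-sulfur clusters on the path to Ndufs7, had 229, 280.1, 255, 269 and 263 CPM in the TAC hearts, against 334, 322, 334, 348 and 332 CPM in the sham hearts. These groups were apart as well. The log2 fold changes were -0.37 ± 0.06 for Ndufs7, -0.38 ± 0.06 for Ndufs3 and -0.37 ± 0.06 for Ndufs8, and the largest adjusted p by edgeR among the 3 was 0.000717, that of Ndufs7. Ndufs3 has a near-identical copy elsewhere in the genome, the annotated gene Gm12251, which could take or lend reads.

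Accessory subunits of the matrix arm number 9 here, and all 9 fell (median log2 fold change -0.39). Ndufs4, whose loss causes a Leigh-like encephalopathy in mice and in people, fell the most of them. It had 42.4, 64.0, 53.3, 54.1 and 60.04 CPM in TAC 1 to TAC 5, against 78.2, 74.8, 82.3, 78.8 and 77.6 CPM in sham 1 to sham 5. TAC 1 stood well below the other TAC hearts, the sham hearts lay close together, and the groups did not overlap. The log2 fold change of Ndufs4 was -0.52 ± 0.09 (adjusted p = 0.0008 by edgeR), and -0.44 without TAC 1 (adjusted p = 0.000318 by edgeR). Ndufa12, at the other end, had 288, 346, 295, 332 and 278 CPM in the TAC hearts, against 398, 339.7, 334, 347 and 379 CPM in the sham hearts. TAC 2 lay above 2 sham hearts, sham 2 and sham 3, so the groups overlapped. Its log2 fold change of -0.22 ± 0.07 passed by a narrow margin (adjusted p = 0.0302 by edgeR). The call ended when any 1 of TAC 1, TAC 3, TAC 5, sham 1 and sham 5 was left out (adjusted p by edgeR from 0.0583 to 0.0735), and in 4 other alternatives, among them library totals (0.147) and the replicate block (0.0596); over all alternatives the adjusted p ran from 0.0123 to 0.182. Ndufa12 has a near-identical copy, Gm15920. The other 7 members of this group were Ndufa5, Ndufv3, Ndufa2, Ndufa7, Ndufa6, Ndufa9, which binds NADPH, and Ndufs6, which holds a zinc ion, and their log2 fold changes ran from -0.45 for Ndufa5 to -0.36 for Ndufs6. Each of the 7 had all TAC hearts below all sham hearts.

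At the proximal part of the membrane arm, 9 of 9 accessory subunits fell (median log2 fold change -0.39), and all 9 had every TAC heart below every sham heart. Ndufa1, a small X-linked subunit needed for assembly of the membrane arm, had 107, 129.5, 131, 138 and 131 CPM in TAC 1 to TAC 5, against 179.5, 172, 179.6, 187 and 182 CPM in sham 1 to sham 5. TAC 1 stood apart below 4 TAC hearts that lay close together, and all 5 were under the lowest sham heart. The log2 fold change was -0.50 ± 0.06 (adjusted p = 0.000135 by edgeR), and -0.44 without TAC 1 (adjusted p = 4.05e-05 by edgeR). Ndufa11, which contacts the membrane arm near its join with complex III in supercomplexes, fell less than most. It had 298, 326, 296, 310.0 and 303 CPM in the TAC hearts, against 366, 360.2, 356, 367 and 356 CPM in the sham hearts, and here TAC 1 was not the lowest heart. The log2 fold change of Ndufa11 was -0.24 ± 0.05 (adjusted p = 0.00187 by edgeR), and -0.23 without TAC 1. The other 7 were Ndufa3, Ndufa8, Ndufa13 (also known as GRIM-19), Ndufc2, Ndufs5, Ndufa10, a relative of nucleoside kinases, and Ndufc1, with log2 fold changes from -0.43 for Ndufa3 to -0.26 for Ndufc1. Ndufs5 has a near-identical copy, BC002163.

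Toward the distal tip of the membrane arm lie the subunits of the Ndufb series. All 10 measured here fell (median log2 fold change -0.38). Ndufb2 fell the most, with 28.3, 48.8, 36.8, 40.9 and 39.6 CPM in TAC 1 to TAC 5, against 56.1, 50.9, 48.0, 62.6 and 54.2 CPM in sham 1 to sham 5. TAC 1 was below the others, while TAC 2 lay just above the lowest sham heart, sham 3, so that the groups touched. Its log2 fold change was -0.49 ± 0.12 (adjusted p = 0.00631 by edgeR) and -0.39 without TAC 1 (adjusted p = 0.0065 by edgeR). The other 9 were Ndufb11, the second X-linked member, Ndufb4, Ndufb10, Ndufb8, Ndufb9, Ndufb5, Ndufb7, Ndufb3 and Ndufb6, from -0.48 for Ndufb11 to -0.27 for Ndufb6. In each of these 9 every TAC heart lay below every sham heart. Ndufb11, Ndufb3 and Ndufb4 have near-identical copies elsewhere, and Ndufb2, Ndufb5, Ndufb8 and Ndufb9 share exon sequence with an overlapping gene. Ndufab1, the mitochondrial acyl carrier protein, sits in both arms of the complex and also serves fatty acid synthesis in the mitochondrion. It had 231, 286, 266, 270.4 and 253 CPM in the TAC hearts, against 369.6, 317, 317, 335 and 355 CPM in the sham hearts, with no overlap, and changed by -0.38 ± 0.07 on the log2 scale (adjusted p = 0.000992 by edgeR). It has both an overlapping gene and near-identical copies. Among the 30 members for which the search of coding sequence found neither, 27 fell and the median was -0.38. Overlaps outside coding sequence were not looked for.

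A pair of members bear complex I names but differ from the rest. Ndufa4 was first described in complex I and was later assigned to cytochrome c oxidase, complex IV. Ndufa4l2 is its paralogue, known from human cell lines as a gene induced by hypoxia. Ndufa4 had 343, 407, 388, 408 and 397 CPM in TAC 1 to TAC 5, against 507, 482, 516, 526 and 511 CPM in sham 1 to sham 5. It moved with the subunits, with no overlap, and changed by -0.39 ± 0.06 on the log2 scale (adjusted p = 0.000298 by edgeR). Ndufa4l2 had 35.3, 30.7, 31.1, 30.4 and 33.7 CPM in the TAC hearts, against 26.9, 31.0, 26.2, 27.9 and 28.8 CPM in the sham hearts. TAC 1, TAC 3 and TAC 5 lay above the sham range, TAC 2 and TAC 4 lay just under its highest heart, sham 2, and TAC 1 was the highest of all. The log2 fold change of 0.19 ± 0.07 passed in the full set (adjusted p = 0.0378 by edgeR), but not without TAC 1 (log2 fold change 0.16, adjusted p = 0.0887 by edgeR), nor when sham 1, sham 3, sham 4, sham 5, TAC 3 or TAC 5 was left out, with adjusted p between 0.0111 and 0.0913 over all alternatives.

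Within a library the ratio of the paralogues does not depend on scaling. Ndufa4l2 counts were 10.3, 7.55, 8.02, 7.44 and 8.49% of Ndufa4 counts in TAC 1 to TAC 5, against 5.31, 6.43, 5.08, 5.31 and 5.64% in sham 1 to sham 5. All TAC hearts lay above all sham hearts, with TAC 1 the highest. The mean log2 ratio was -3.58 ± 0.19 in TAC hearts and -4.16 ± 0.13 in sham hearts (SD, n = 5 each), a difference of 0.58, or 1.497-fold. An exact two-sided permutation test over 252 divisions of the libraries gave p = 0.00794, the smallest this design allows (0.0159 adjusted over the 2 ratios tested), and without TAC 1 the difference was 0.51. Both the fall of Ndufa4 and the level of Ndufa4l2 enter this ratio. Markers of smooth muscle and pericytes, cells known to express Ndufa4l2 in mice, summed to 1011 to 1156 CPM in TAC hearts and 984 to 1299 CPM in sham hearts. Of these 6 markers 1, Pdgfrb, rose (2 of 6 without TAC 1), where 18.8% of all tested genes rose. The part of these cells in the level of Ndufa4l2 was not tested.

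**Figure D3:**
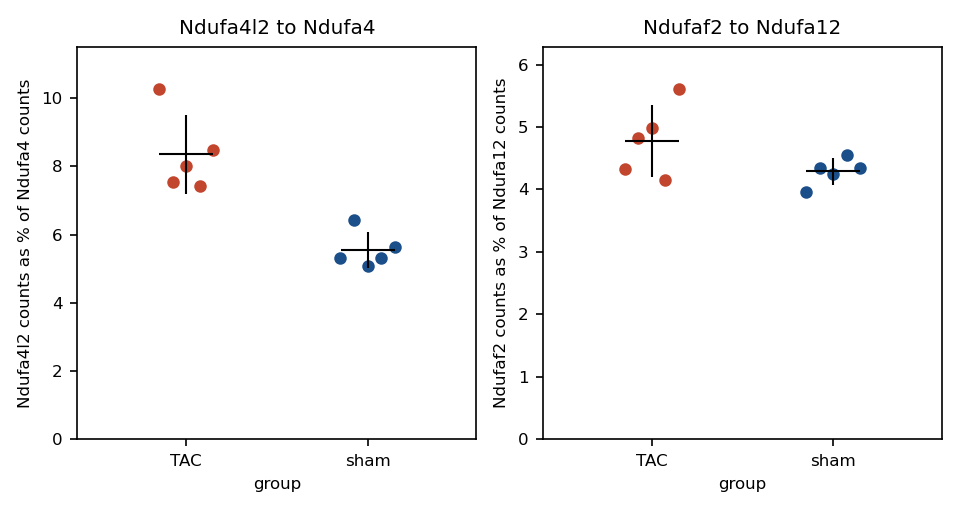
Points are libraries, TAC left of sham, with black bars at the mean and 1 SD; the left panel shows Ndufa4l2 counts as a percentage of Ndufa4 counts, and the right panel Ndufaf2 counts as a percentage of Ndufa12 counts. The TAC points lie above all sham points on the left, and the groups overlap on the right.

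Per kilobase of annotated exon, the assembly factors lay below nearly all subunits, and not all of them passed the test. Of the 4 Ndufaf members 2 fell, where 17.0% of all tested genes fell, and the median log2 fold change of the 4 was -0.28. Ndufaf1, a member of the mitochondrial complex I assembly complex that builds the membrane arm, had 8.90, 12.2, 7.71, 9.92 and 10.1 CPM in TAC 1 to TAC 5, against 11.8, 14.5, 14.3, 13.7 and 15.8 CPM in sham 1 to sham 5. TAC 3 was the lowest heart and TAC 2 lay just above sham 1, so the groups touched. It had the lowest log2 fold change of all 42 members, -0.52 ± 0.12 (adjusted p = 0.00504 by edgeR), and -0.49 without TAC 1, but its SE is also the largest, on counts that begin at 64. Ndufaf3, which acts with Ndufaf4 on the ubiquinone module, had 28.9, 26.9, 31.8, 31.0 and 27.3 CPM in the TAC hearts, against 35.3, 38.2, 36.0, 35.2 and 37.9 CPM in the sham hearts. The groups did not overlap, TAC 2 rather than TAC 1 was lowest, and the log2 fold change was -0.32 ± 0.06 (adjusted p = 0.00187 by edgeR). Ndufaf4 had 22.3, 34.9, 28.9, 29.0 and 25.9 CPM in the TAC hearts, against 35.5, 35.7, 32.0, 29.4 and 33.8 CPM in the sham hearts. TAC 2 lay among the highest sham hearts, and the log2 fold change of -0.24 ± 0.10 did not pass (adjusted p = 0.0834 by edgeR); without TAC 2 it was -0.33 and passed (adjusted p = 0.0149 by edgeR).

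Ndufaf2 is a relative of the subunit Ndufa12 that occupies its place during assembly and leaves when Ndufa12 is fitted. It had 12.5, 16.7, 14.7, 13.8 and 15.6 CPM in TAC 1 to TAC 5, against 15.7, 14.8, 14.2, 15.8 and 16.5 CPM in sham 1 to sham 5. TAC 1 and TAC 4 lay below the sham range, TAC 2 above it, and the others within it. The log2 fold change of -0.07 ± 0.09 did not pass (adjusted p = 0.551 by edgeR). Ndufaf2 counts were 4.33, 4.83, 4.98, 4.16 and 5.61% of Ndufa12 counts in TAC 1 to TAC 5, against 3.95, 4.34, 4.25, 4.55 and 4.34% in sham 1 to sham 5. TAC 4 and TAC 1 fell within the sham range and the other TAC hearts above it. The log2 ratio was -4.37 ± 0.17 in TAC hearts and -4.52 ± 0.07 in sham hearts (SD, n = 5 each), and the difference of 0.15 did not pass the exact two-sided permutation test (p = 0.103, also 0.103 adjusted over the 2 ratios). Without TAC 4 the difference was 0.20 (p = 0.0238, exact permutation test, unadjusted).

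The series of Ndufaf genes goes on to Ndufaf8, but the table lists the other 4 under older symbols, so they are not members. 1810043H04Rik, now Ndufaf8, the partner of Ndufaf5, had 22.1, 23.6, 27.0, 21.4 and 23.8 CPM in the TAC hearts, against 31.2, 25.1, 24.5, 28.1 and 31.7 CPM in the sham hearts. The groups overlapped, and its log2 fold change was -0.26 ± 0.09 (adjusted p = 0.0397 by edgeR). 2310003L22Rik, now Ndufaf5, which hydroxylates an arginine of Ndufs7, had 8.90, 8.43, 10.6, 9.60 and 10.1 CPM in the TAC hearts, against 10.7, 9.76, 13.8, 10.3 and 11.1 CPM in the sham hearts. 2310030N02Rik, now Ndufaf6, had 5.20, 6.39, 7.35, 7.52 and 9.22 CPM in the TAC hearts, against 7.13, 9.15, 9.17, 10.2 and 9.27 CPM in the sham hearts. 2410091C18Rik, now Ndufaf7, a protein arginine methyltransferase, had 11.4, 13.7, 14.2, 15.1 and 13.8 CPM in the TAC hearts, against 13.5, 16.0, 19.0, 15.2 and 16.6 CPM in the sham hearts. In each of these 3 the groups overlapped and the test did not pass, with log2 fold changes of -0.22 ± 0.11, -0.32 ± 0.15 and -0.23 ± 0.10 in that order. Over Ndufaf1 to Ndufaf8, 3 fell, none rose and 5 did not pass; without TAC 1, 2 fell. Of 11 other complex I assembly factors tested, 6 fell and none rose (5 did not pass), and their median was -0.30 on the log2 scale. Those with the smallest adjusted p were Ecsit, a partner of Ndufaf1, at -0.42 ± 0.05, Atp5sl, now Dmac2, at -0.38 ± 0.07, and Foxred1, an oxidoreductase, at -0.29 ± 0.06. Acad9, a partner of Ndufaf1 and Ecsit, was at -0.10 ± 0.07 and did not pass (adjusted p = 0.327 by edgeR).

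Levels of different members can be compared only per length, here as CPM per kilobase (kb) of annotated exon. Subunit levels spanned 80.8-fold in TAC hearts and 73.8-fold in sham hearts. The highest was Ndufb9, with 558 ± 34.6 CPM per kb in TAC hearts and 713 ± 20.5 in sham hearts (SD, n = 5 each). It was followed by Ndufs6, with 509.8 ± 43.9 CPM per kb in TAC hearts and 655 ± 22.8 in sham hearts. Ndufa8 and Ndufb10 came next, at 394 ± 41.0 and 383 ± 32.0 CPM per kb in TAC hearts, and did not differ from each other beyond their spread. Ndufb11, Ndufa4 and Ndufa11, at 284 ± 27.0, 281 ± 19.3 and 281 ± 11.02 CPM per kb, were alike within their spread in TAC hearts only. In sham hearts they had 395 ± 25.6, 368 ± 11.9 and 331 ± 5.12 CPM per kb, with Ndufa11 below the other 2. The subunit median was 163 CPM per kb in TAC hearts and 205 CPM per kb in sham hearts. For the Ndufaf members the median was 6.87 CPM per kb in TAC hearts and 8.94 CPM per kb in sham hearts. Ndufb2, at 6.91 ± 1.31 CPM per kb in TAC hearts and 9.66 ± 0.983 in sham hearts, was the lowest subunit and alone sets the low end of both spans. Its annotated exons cover 5628 bases (4371 in its longest transcript), where the member median is 1644. An overlapping gene also shares its sequence, so its level per length is uncertain. Ndufs4 was next above Ndufb2 in TAC hearts and Ndufa4l2 in sham hearts. Ndufs4 had 20.2 ± 3.03 CPM per kb in TAC hearts and 28.9 ± 0.996 in sham hearts. Ndufa4l2 had 29.4 ± 1.95 CPM per kb in TAC hearts and 25.7 ± 1.69 in sham hearts. The order of the members was almost the same in both groups, as no member moved by more than 2 places. The order does depend on the annotation: with the length of the longest transcript in place of all exons, 11 members moved by more than 3 places in TAC, Ndufb9, Ndufs6 and Ndufaf2 keeping the first, second and last.

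**Figure D4:**
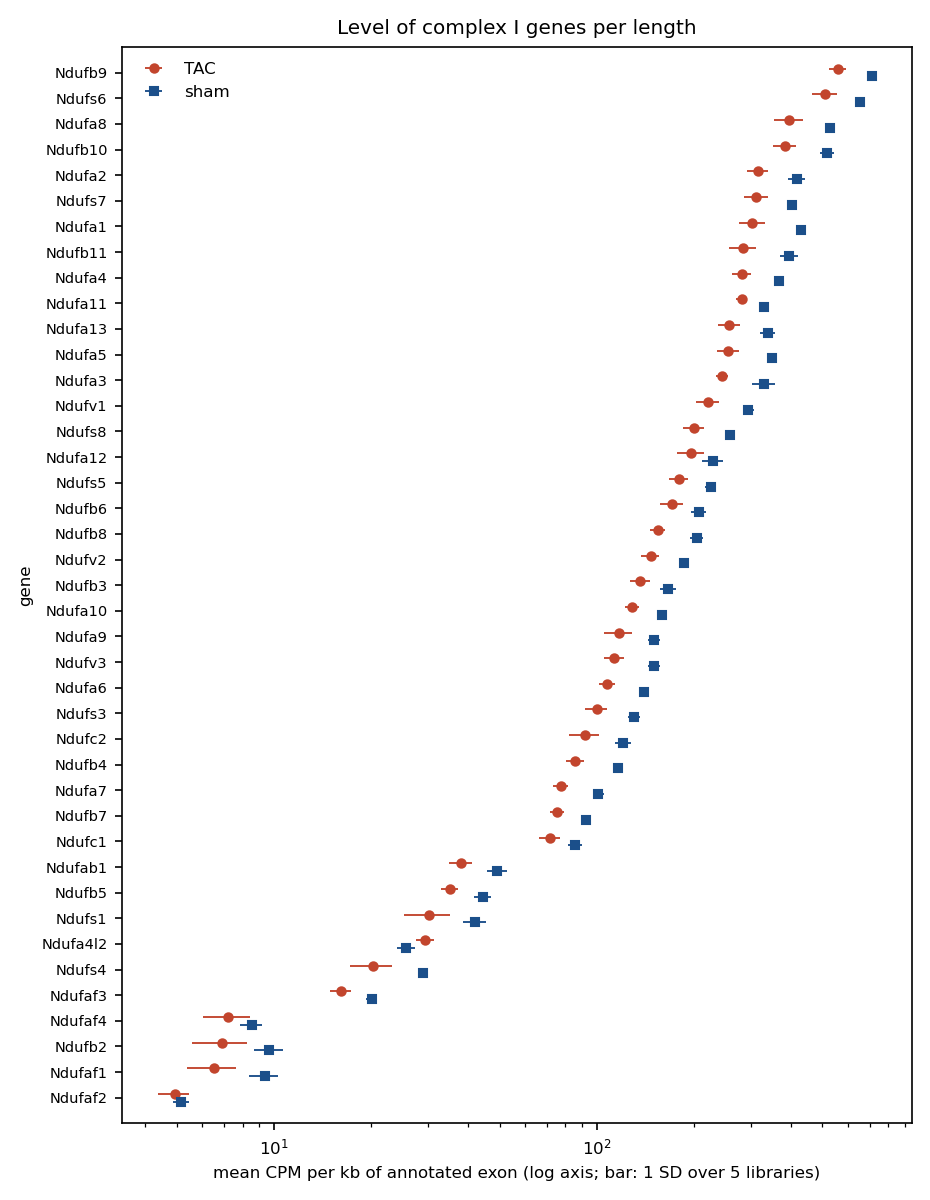
Points are mean CPM per kb of annotated exon on a log axis, TAC as circles and sham as squares, with bars of 1 SD over 5 libraries, for 41 of the 42 genes ordered by their TAC level. The TAC point lies left of the sham point in nearly every row, the 4 assembly factors lie near the bottom, and Ndufa4l2 shows the opposite order.

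The mitochondrial DNA encodes the other core subunits, those of the membrane arm. Of these 7 Nd transcripts 2 fell, where 17.0% of all tested genes fell, and none rose (5 did not pass). Their median was -0.24 on the log2 scale, and -0.17 without TAC 1. mt-Nd1, next to the ubiquinone site, had 4852, 7169, 6447, 6437 and 5735 CPM in TAC 1 to TAC 5, against 8800.1, 7227, 6974, 8154 and 7411 CPM in sham 1 to sham 5. TAC 2 lay above sham 3, so the groups overlapped, and the log2 fold change was -0.33 ± 0.10 (adjusted p = 0.0225 by edgeR). mt-Nd4l had 2214, 2715, 2410.4, 2535 and 2307 CPM in the TAC hearts, against 3026, 2626, 2955, 3114 and 2724 CPM in the sham hearts. The groups overlapped again, and the log2 fold change was -0.25 ± 0.07 (adjusted p = 0.0178 by edgeR). The log2 fold changes of those that did not pass were -0.24 ± 0.09 for mt-Nd2, -0.27 ± 0.15 for mt-Nd3, -0.20 ± 0.10 for mt-Nd4, -0.17 ± 0.10 for mt-Nd5 and -0.14 ± 0.10 for mt-Nd6, with adjusted p from 0.0552 (mt-Nd2) to 0.279 (mt-Nd6) by edgeR. None of the 7 had all TAC hearts below all sham hearts. Whether the mitochondrial and nuclear transcripts fell by different amounts was not tested. Transcripts of mitochondrial DNA overlap and the library method lost the strand, so neighbours may exchange reads.

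The falls were not particular to complex I. Of 41 nuclear genes of complexes II to V tested, 39 fell and none rose, Cox8a and Cox6a1 being the 2 that did not pass, and their median was -0.39 on the log2 scale beside -0.38 for the complex I members. By complex, 4 of 4 genes of complex II fell (median -0.42), 9 of 9 of complex III (-0.35), 11 of 13 of complex IV (-0.43) and 15 of 15 of ATP synthase (-0.38). Without TAC 1, 38 of the 41 fell, 10 of 13 in complex IV, with a median of -0.34. Among the complex II genes, Sdhc was at -0.42 ± 0.05, Sdhb at -0.41 ± 0.06 and Sdhd at -0.35 ± 0.06, and in complex III, Uqcr10 was at -0.38 ± 0.05, Uqcr at -0.39 ± 0.05 and Uqcrh at -0.35 ± 0.06. In complex IV the heart isoforms Cox8b and Cox6a2 were at -0.55 ± 0.06 and -0.44 ± 0.05 and Cox4i1 at -0.44 ± 0.06, and in ATP synthase Atp5c1 was at -0.44 ± 0.06, Atp5g2 at -0.35 ± 0.05 and Atp5h at -0.45 ± 0.07. Of 11 regulators of mitochondrial gene expression, 5 fell, 1, Pprc1, rose and 5 did not pass, where 17.0% of all tested genes fell and 18.8% rose. The median of the regulators was -0.15 on the log2 scale, and -0.09 without TAC 1. Those that fell were Ppargc1a, Esrra, Esrrb, Esrrg and Tfam. Esrra, a nuclear receptor whose targets include respiratory chain genes, had 179.8, 213, 179, 198 and 181 CPM in TAC 1 to TAC 5, against 279, 259, 238, 246 and 256 CPM in sham 1 to sham 5. The groups were apart, and Esrra changed by -0.43 ± 0.06 on the log2 scale (adjusted p = 0.000314 by edgeR). Nrf1, another regulator of these genes, was at -0.04 ± 0.11 and did not pass (adjusted p = 0.806 by edgeR).

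**Figure D5:**
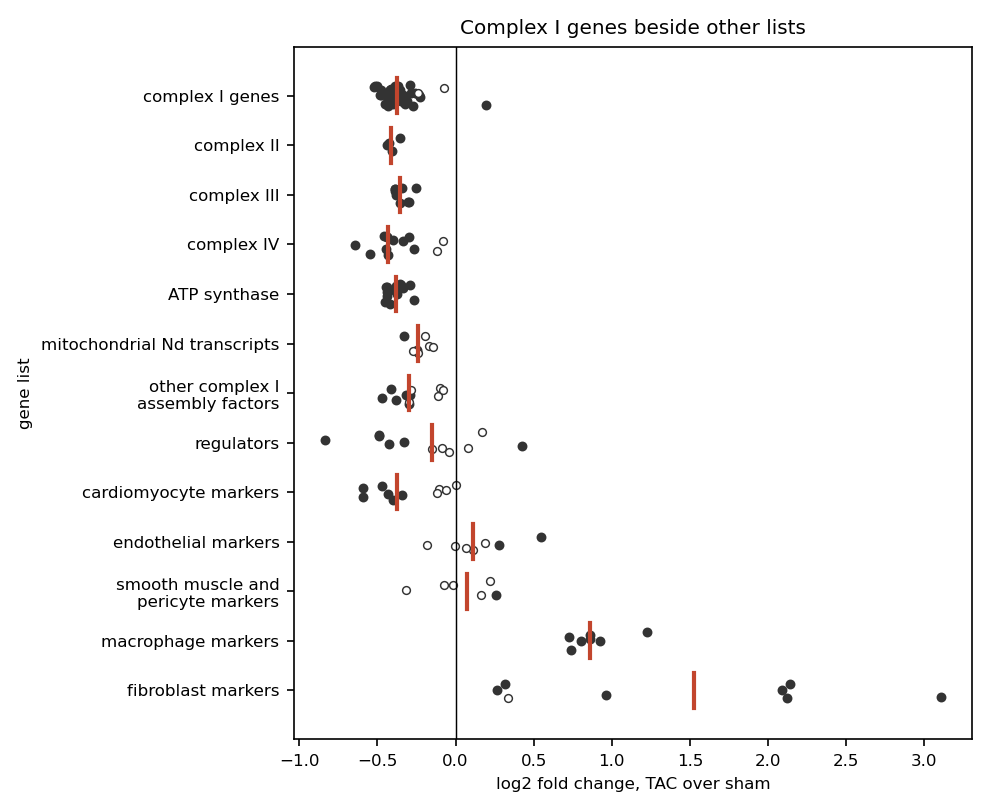
Points are genes, placed by log2 fold change of TAC over sham, filled where the adjusted p was under 0.05, with a red bar at each list's median and a black line at the median of all tested genes. The complex I genes and complexes II, III, IV and ATP synthase lie at nearly the same place, cardiomyocyte markers spread from -0.60 to 0.00, and macrophage and fibroblast markers lie on the positive side.

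Markers of cardiomyocytes mostly fell and those of fibroblasts and macrophages mostly rose, while most markers of the other cell types did not pass. Of 10 cardiomyocyte markers 6 fell, where 17.0% of all tested genes fell, and none rose (4 did not pass). Their median was -0.37 on the log2 scale, and their sum was 71628, 93589.7, 81547, 95425 and 87624 CPM in TAC 1 to TAC 5, against 103674, 96331, 116020.0, 105557 and 111071 CPM in sham 1 to sham 5. The highest TAC heart lay just below the lowest sham heart, and TAC 1 was the lowest. Pln, Tnnt2 and Tnni3 fell, with -0.59, -0.47 and -0.60, whereas Ttn was at 0.00 ± 0.09 (adjusted p = 0.985 by edgeR), and Mybpc3, Actc1 and Tnnc1 also did not pass. Of 8 fibroblast markers 7 rose (6 without TAC 1), and their sum was 8621, 3450.3, 3541, 2946 and 3176 CPM in the TAC hearts, against 902, 1365, 1351, 1098 and 1217 CPM in the sham hearts. All 7 macrophage markers tested rose, and their sum was 357, 198, 219.8, 201 and 213 CPM in the TAC hearts, against 121, 139, 138, 135 and 141 CPM in the sham hearts. TAC 1, the heart with the lowest complex I level, had the highest sums of both lists. Of 7 endothelial markers 2 rose, Cdh5 and Pecam1 (3 rose without TAC 1), where 18.8% of all tested genes rose. All 7 summed at 1126 to 1383 CPM in TAC hearts and 1002 to 1227 CPM in sham hearts. None of 5 erythroid markers passed, summed at 1000.1 to 2137 CPM in TAC hearts and 276 to 1688 CPM in sham hearts, and only 1 adipocyte marker, Cidec, had enough counts to be tested and did not pass. The part of the cell makeup in the level of the complex I transcripts was not tested.

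The members lie on 16 chromosomes, and most are short in exon sequence. Their annotated exons covered 419 to 8086 bases, with a median of 1644 beside 4652 for all tested genes. Ndufs1, Ndufab1, Ndufb2 and Ndufb5 lay above that median of all tested genes. With a correction of each library for exon length and GC content, 36 members fell and 1 rose, with a median log2 fold change of -0.31, and Ndufa12, Ndufb3 and Ndufb6 no longer passed. With library totals in place of TMM, which shifts the median of all tested genes to 0.11, the members' median was -0.27 and 38 fell.

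Promoter sequence was looked up for all 42 members, whether or not they passed the test, and 37 had an entry. The windows ran from 250 bases before to 50 after the gene start, from RefSeq on build GRCm38.p6. Both strands were searched for letters known to be bound by regulators of respiratory genes. The palindrome bound by NRF1, the protein of the gene Nrf1, whose letters are the capitals in the Ndufa11 and Ndufaf4 stretches printed here, was present in 2 members, 5.41% of 37, beside 1.07% of 27025 promoters, and the same letters with any base in the sixth place, a looser form that takes in the first, in 8 members, 21.6%, beside 5.19%. The half-site AAGGTCA, shared by many nuclear receptors, was present in 3 members, 8.11%, beside 5.38%, and the longer TCAAGGTCA of the estrogen-related receptors, which contains it, in 0 members, beside 0.466%. CCGGAAGT, bound by GABP, was present in 1 member, 2.70%, beside 4.31%, and AAGATGGCG, bound by YY1, in 5 members, 13.5%, beside 1.64%. A match is a description of the letters and not of binding, and the absence of one says only that these letters are not in the window. The stretches below, 5′ to 3′ along the gene's strand, hold the NRF1 palindrome or the half-site, in capitals, and all end before the gene start.
Ndufa11 (chr17:56717677-56717736, plus strand): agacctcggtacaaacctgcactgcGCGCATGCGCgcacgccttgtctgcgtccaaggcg
Ndufaf4 (chr4:24897945-24898004, plus strand): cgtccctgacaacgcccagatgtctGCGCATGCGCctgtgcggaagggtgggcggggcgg
Ndufb2 (chr6:39592358-39592417, plus strand): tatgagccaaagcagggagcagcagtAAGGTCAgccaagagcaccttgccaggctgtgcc
Ndufb4 (chr16:37654390-37654449, minus strand): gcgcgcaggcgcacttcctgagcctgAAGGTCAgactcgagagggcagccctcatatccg
Ndufs5 (chr4:123718377-123718436, minus strand): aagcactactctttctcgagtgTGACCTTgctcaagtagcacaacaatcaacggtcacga
Ndufa11 and Ndufaf4 carry the same palindrome but differ in level by more than an order of magnitude. Their log2 fold changes were -0.24 ± 0.05 and -0.24 ± 0.10, and that of Ndufaf4 did not pass. Ndufb2, Ndufb4 and Ndufs5 carry the half-site, on the opposite strand in Ndufs5, and their log2 fold changes were -0.49 ± 0.12, -0.44 ± 0.06 and -0.33 ± 0.06. Ndufb4 and Ndufs5 also carry the looser NRF1 letters, in Ndufb4 also within the printed stretch, in small letters, at -79 to -70 from the gene start. The YY1 letters were in Ndufa9, Ndufc1, Ndufs4, Ndufs6 and Ndufs7, with log2 fold changes from -0.52 (Ndufs4) to -0.26 (Ndufc1). A part of any of these letters in the falls was not tested.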

How the data were processed

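The authors deposited 1 table of raw counts, in whole reads for each Ensembl gene, for 5 TAC and 5 sham libraries, made from polyadenylated RNA in single-end libraries without strand, per the labels' protocols. The submitters' processing notes name TopHat 1.3.0, Bowtie, HTSeq and the builds mm9 and mm10 for TAC libraries, and TopHat2 2.0.10, Bowtie2, HTSeq and the build mm10 for sham libraries, with no role or order, while the file header names GRCm37. How HTSeq was set, and with which annotation, is not given in the sources used here. The sham group comes from the series design text, since those titles do not say sham, and the design text counts mice, so libraries are taken as separate animals. A row of column totals was left out.

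Counts were tested over all genes in R 4.3.3 with edgeR 4.0.16 and limma 3.58.1, using TMM, filterByExpr (minimum count 10, minimum total 15), the quasi-likelihood F test with only the group in the model, and adjustment by Benjamini-Hochberg over 12001 genes at 0.05. The method was tested on simulated data. CPM use TMM-scaled library sizes. Ratios of counts used a prior count of 2 and exact permutation tests. Lengths and GC content came from GENCODE M21, matched by Ensembl ID (94.6% of IDs), and promoters from RefSeq, GRCm38.p6. Near-identical copies and overlapping genes that share sequence came from BLAST 2.17.0 of coding sequence (at least 95% identity over 100 bases). The gene lists and members were chosen with earlier results of these data known. Values in every library are given for nuclear core subunits, the 4 largest falls, the 4 smallest falls or rises, both members of each ratio, Ndufaf genes and members that did not pass, with up to 3 genes by adjusted p for each other list; the values of 1 member are not reported here, in text or figures, though it is in every count and sum over the members. Ndufab1, Esrra, Nrf1, Acad9 and some markers were added after their values were seen. Counting error limits precision for weakly expressed members, and p-values cover the spread between these libraries only.

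Alternatives were DESeq2 1.42.0 size factors and test, library totals, no filter, robust dispersion, limma-voom, a loess correction for length and GC content, a replicate block, and leaving out each library. Deviations of same-numbered libraries did not correlate above 0.1 in every pair, so the numbers were not taken as pairs.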

Additional observations from a re-analysis of the deposited data

Results flagged for a closer look

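In 90 groups of 5 libraries looked at, 2 had a library far from the others by Dixon's test, where chance flags about 1 in 20 groups, or 4.5 here. Both are TAC 1, the library that went against its female label. Ndufa1 was at 106.9 CPM in TAC 1, against 129 to 138 CPM in the other TAC libraries. Ndufa13 was at 277.2 CPM in TAC 1, against 329 to 341 CPM in the other TAC libraries. Neither gene lost its call without this library, and no explanation was tested.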

How the results depend on the processing

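Over 19 alternatives for each of 42 members, 772 of 798 outcomes kept direction and side of the threshold, and 35 members did so in every alternative. The exceptions were Ndufa4l2 in 10, Ndufa12 in 9, Ndufb3 and Ndufb6 in 2 each (both length and GC corrections), Ndufc1 in 1 (that correction with the replicate block), Ndufaf4, which passed without TAC 2, and Ndufaf2, whose value changed sign to 0.030 with library totals. Library totals in place of TMM gave 1159 genes lower and 3257 higher in TAC in place of 2040 and 2251, a median of 0.11 for all tested genes and of -0.27 for the members. The number of members that rose, 1 in the reported test, was 0 with no filter, with the replicate block and with DESeq2, and ranged from 0 to 1 over the sets that left out 1 library, where the members that fell ranged from 38 to 40. The replicate block gave 38 members lower and 1924 and 2113 genes lower and higher. The same-numbered libraries correlated between -0.0916 and 0.222 in their deviations, so the numbers were not treated as pairs. With the block, the exact sign-flip test of the Ndufa4l2 to Ndufa4 ratio (difference 0.58) gave p = 0.0625, the smallest that 5 pairs allow. The difference in the Ndufaf2 to Ndufa12 ratio ranged from 0.092 to 0.20 over the sets that left out 1 library. The median level of the 42 members in TAC hearts was 142 CPM per kb of annotated exon, and 210.2 CPM per kb with the longest transcript as length. Unless named above, the cause of a change was not tested. Among the members, depth limits the Ndufaf members most, with counts from 64 upward.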
